A study of Mus musculus with 29 samples.

Results

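Transcripts of 7 heat shock protein genes were followed through single-cell libraries of mouse brain and blood taken after stroke. The genes were Hspa1a, Hspa1b, Hsp90aa1, Hsph1, Dnajb1, Hspa8 and Hspa5. They were chosen by name and not by a measured value, but with earlier results of these data known. All 7 were listed in each of the 29 libraries, among 27827 gene symbols in the tables as a whole. All mice were C57BL/6J. Brain of young males, aged 8 to 10 weeks, was sampled in 12 libraries: 4 at day 2 after sham surgery, 4 at day 2 after stroke and 4 at day 14 after stroke, which was made by occluding the middle cerebral artery for a time. The same design in young blood gave 4, 4 and 3 libraries. The aged mice, 17 to 20 months old, were sampled in brain alone. Their libraries were 2 of sham at day 2 (a male and a female), 3 of stroke at day 2 (a male and 2 females) and 1 of stroke at day 14 (a female). No group was a sham at day 14, so both stroke times were set against the same sham libraries, and day 14 differs from them in surgery and in time.

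Each brain library pooled 4 to 5 hemispheres that were dissociated with papain, and the sort kept microglia, endothelial cells and leukocytes with high CD45. Each blood library pooled 2 mice and had its red cells lysed and depleted. The labels name transcription and receptor blockers in the buffers of both tissues, actinomycin D among them. Nothing in the labels says more of how the pools were formed, so p-values measure the spread between these libraries.

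Heat shock proteins are chaperones that bind unfolded or newly made proteins and help them to fold, refold or be destroyed. Heat shock factor 1 switches on the inducible cytosolic members, Hspa1a and Hspa1b, when unfolded proteins collect in the cytosol, and it raises Dnajb1, Hsph1 and Hsp90aa1 along with them. Hspa8 is the cytosolic Hsp70 that cells make at all times, and Hspa5 (BiP) is the Hsp70 of the endoplasmic reticulum, driven by the unfolded protein response. Hspa1a and Hspa1b are long known as markers of stressed tissue after ischemia, and also as genes that rise when tissue is dissociated into single cells.

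Hspa1a and Hspa1b lie side by side on the minus strand of chromosome 17 (GRCm38, GENCODE annotation), at chr17:34969190-34972156 and chr17:34956436-34959238, 9951 bases apart. Their transcripts are so alike that 58.8% of the 50-base stretches of Hspa1a also occur in Hspa1b. In the last 500 bases of Hspa1a, where counting at the 3′ end takes place, none of 451 such stretches was shared. How the authors assigned reads that match both is not given in the sources used here, so the split between these 2 genes is uncertain and fold changes of their sum are given as well. Their upstream sequences are printed because they show how nearly identical the control regions of the pair are. RefSeq (GRCm38.p6) gives the 250 bases before each start at chr17:34972157-34972406 and chr17:34959239-34959488, both on the minus strand, and 247 of the 250 positions (98.8%) are the same. Capitals mark the heat shock element core GAANNTTC, which begins 104 bases before the start in both.
Hspa1a: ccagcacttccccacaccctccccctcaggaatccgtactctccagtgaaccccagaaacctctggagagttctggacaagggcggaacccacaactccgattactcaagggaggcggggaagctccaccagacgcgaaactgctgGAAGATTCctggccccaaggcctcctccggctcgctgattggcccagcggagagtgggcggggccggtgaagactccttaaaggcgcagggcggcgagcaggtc
Hspa1b: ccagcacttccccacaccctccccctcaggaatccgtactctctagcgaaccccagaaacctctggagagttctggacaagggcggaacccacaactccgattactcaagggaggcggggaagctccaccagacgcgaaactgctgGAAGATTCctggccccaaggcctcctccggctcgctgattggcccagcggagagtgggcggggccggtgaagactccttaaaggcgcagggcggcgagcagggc

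This core reads the same on both strands, and 6.69% of 32851 promoter windows of that length hold it. The longer form GAANNTTCNNGAA, searched on both strands, was found in 0.466% of the windows and in none of the 5 members that the promoter table held. Hsph1 (chr5:149614287-149636376, minus strand) held the outward form TTCNNGAA, which 7.17% of windows hold. Hspa5 lies at chr2:34771970-34777547 on the plus strand, and its element is printed because the gene stood out in the results below. Capitals mark the endoplasmic reticulum stress element, searched on both strands as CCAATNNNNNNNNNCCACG, which starts at position 34772025, 65 bases before the RefSeq start. The stretch printed with its flanks is chr2:34772020-34772048 on the plus strand.
Hspa5: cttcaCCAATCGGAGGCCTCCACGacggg

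Only 37 promoter windows (0.113%) held that element. In the GENCODE annotation the gene span of Hspa5 begins further upstream and contains it. The other members lie at chr8:83608193-83612653 on the plus strand (Dnajb1), chr9:40800984-40810087 on the plus strand (Hspa8) and chr12:110690605-110702728 on the minus strand (Hsp90aa1). A match of letters is a description of the sequence and shows neither binding nor use.

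Brain libraries held 1143 to 5121 cells and 819438 to 5855047 counts, and blood libraries 2360 to 6328 cells and 966914 to 5232662 counts. Medians per cell were 321 to 1363 counts for brain libraries and 341 to 694 for blood libraries. No pair of libraries shared more than 7 cell barcodes. The authors' cell type codes were checked against marker lists. By mean log2 level each code in brain had its own list highest, while the blood dendritic code had the monocyte list (8.79) above the dendritic one (8.23). By summed level border-associated macrophages held more of the monocyte list (16729 CPM) than of their own (13288 CPM). The microglia of stroke day 2 replicate 3 stood furthest apart: they were only 58 cells, and their 8 microglial markers summed to 817 CPM (counts scaled to a common total of 1e+06), against 19050 to 26655 CPM in sham, with 4 of the 8 at 0. Monocyte or macrophage markers summed to 4330 CPM in these cells, above their own list, and to 545 to 1308 CPM in the microglia of the other day 2 libraries. The fold changes of Hspa1a, Hspa1b, Dnajb1 and Hspa5 in microglia at day 2 are given without this library too. Endothelial cells fell into 5 libraries with 0.544% to 1.12% mitochondrial counts and 7 with 5.47% to 9.27%. The 5 were 1 sham library, 2 of stroke day 2 and 2 of stroke day 14, so the split was uneven between sham and stroke. Levels below are CPM within the cells of 1 type in 1 library, and a type entered from 20 cells in a library. The test was the quasi-likelihood test of edgeR on counts summed per library and type. A gene is called at a Benjamini-Hochberg adjusted p under 0.05 over all genes tested. Where groups are said not to overlap, this describes the levels of the libraries and is no test. The share of all genes without overlap was not counted. With 4 against 4 libraries, an exact two-sided permutation test can give no p below 0.0286, before any adjustment.

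Over 36 comparisons, the members gave 201 tests and 18 calls, and 10 of the 18 calls were Hspa5. Within a tissue 5 of 175 tests were called, where 4.76% of all 193129 gene tests were. Between brain and blood 13 of 26 were called, where 22.0% of all 18433 gene tests were.

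Hspa5, the endoplasmic reticulum chaperone, was higher at day 2 after stroke in brain endothelial cells and in monocyte-derived cells, and in endothelial cells it was back near the sham level by day 14. In endothelial cells the 4 sham libraries held 601, 426, 360.3 and 611 CPM. At day 2 after stroke the libraries held 1278, 1578, 876 and 830.1 CPM, and at day 14 they held 336, 751, 409 and 478 CPM. Every day 2 library lay above every sham library and above every day 14 library, while day 14 and sham overlapped. The rise at day 2 was 2.46-fold (log2 fold change 1.30, SE 0.30, adjusted p = 0.0126 by edgeR). From day 2 to day 14 Hspa5 fell by 1.31 on the log2 scale (SE 0.30, adjusted p = 0.0130), and day 14 against sham differed by -0.01 (95% interval -0.60 to 0.59). Hspa5 was the only 1 of the 7 members called at day 2 against sham, where 13.3% of 5833 genes were called. Hspa5 and Hspa1b were the 2 members called between day 14 and day 2, where 11.2% were. Leaving out sham replicate 3 ended the day 2 call (adjusted p = 0.0574), and no other library did.

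The measures beside this endothelial result were these. The 8 endothelial markers summed to 22358 to 31406 CPM in sham and to 15147 to 21373 CPM at day 2, without overlap. Microglial markers other than Sparc, a gene that endothelial cells make too, summed to 0 to 24.6 CPM in sham and 0 to 45.8 CPM at day 2, against 15661 to 22898 CPM in sham microglia. Sparc itself was 1700.0 to 2523 CPM in sham, 3733 to 6830.4 CPM at day 2 and 2241 to 2942 CPM at day 14. The T cell list summed to 472 to 653 CPM in sham, 191 to 261 CPM at day 2 and 436 to 592 CPM at day 14. Both separated day 2 from sham and from day 14 without overlap, as Hspa5 did. In libraries under 2% mitochondrial counts Hspa5 was 601 CPM in 1 sham library and averaged 1428 CPM in 2 libraries at day 2. In libraries above 2% it averaged 466 CPM in 3 sham libraries and 853 CPM in 2 at day 2. The part of the mitochondrial share and of these markers in the result was not tested. Endothelial subtypes also differed in share between the groups, with the values given under the subtypes.

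In monocyte-derived cells, the macrophages that form from blood monocytes in the injured brain, sham libraries held 847, 973, 1199 and 1203 CPM of Hspa5. The day 2 libraries held 2528, 2019, 1933 and 2017 CPM, and the day 14 libraries 1179, 1569, 1078 and 1905 CPM. No day 2 library overlapped a sham or a day 14 library, whereas day 14 overlapped sham. The rise at day 2 was 2.88-fold (log2 fold change 1.52, SE 0.26, adjusted p = 0.00268), while the median over all 8080 genes was 0.29 on the same scale. It was the only member called of 7, with 6.71% of genes called, and it was called under all 15 alternative settings. At day 14 against sham the log2 fold change was 0.93 (adjusted p = 0.0501), and at day 14 against day 2 it was -0.60 (adjusted p = 0.343). Neither comparison called any of the 7 members by edgeR. Genes at an unadjusted p under 0.05 numbered 1 and 3, DESeq2 called 1 in each (Hspa5 and Hspa1a), and 5.15% and 1.79% of all genes were called.

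The sham monocyte-derived cells were few, 43 to 99 cells per library, and the day 2 libraries held 1468 to 2180. Microglial markers summed to 45.9 to 555 CPM in the sham cells and to 270 to 713 CPM at day 2, with overlap. The B cell list separated the groups, at 49.4 to 189.6 CPM in sham and 15.5 to 42.9 CPM at day 2. The part of these measures in the Hspa5 result was not tested. Under 2% mitochondrial counts in endothelial cells, the 1 sham library held 847 CPM and 2 day 2 libraries averaged 2273 CPM. Above 2%, sham averaged 1125 CPM and day 2 1975 CPM.

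In microglia, the resident macrophages of the brain, Hspa5 did not separate the groups. Sham microglia held 1478, 2355, 2622 and 1666 CPM, day 2 microglia 2087, 1992, 1497 and 2978 CPM, and day 14 microglia 1066, 1343, 1167 and 2344 CPM. The 3 groups overlapped throughout. The log2 fold change at day 2 against sham was 0.22, with a 95% interval of -0.49 to 0.92, which leaves room for a rise as well as a fall, and without replicate 3 it was 0.40 (adjusted p = 0.378). Whether the response of Hspa5 differs between cell types was not tested.

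**Figure D1:**
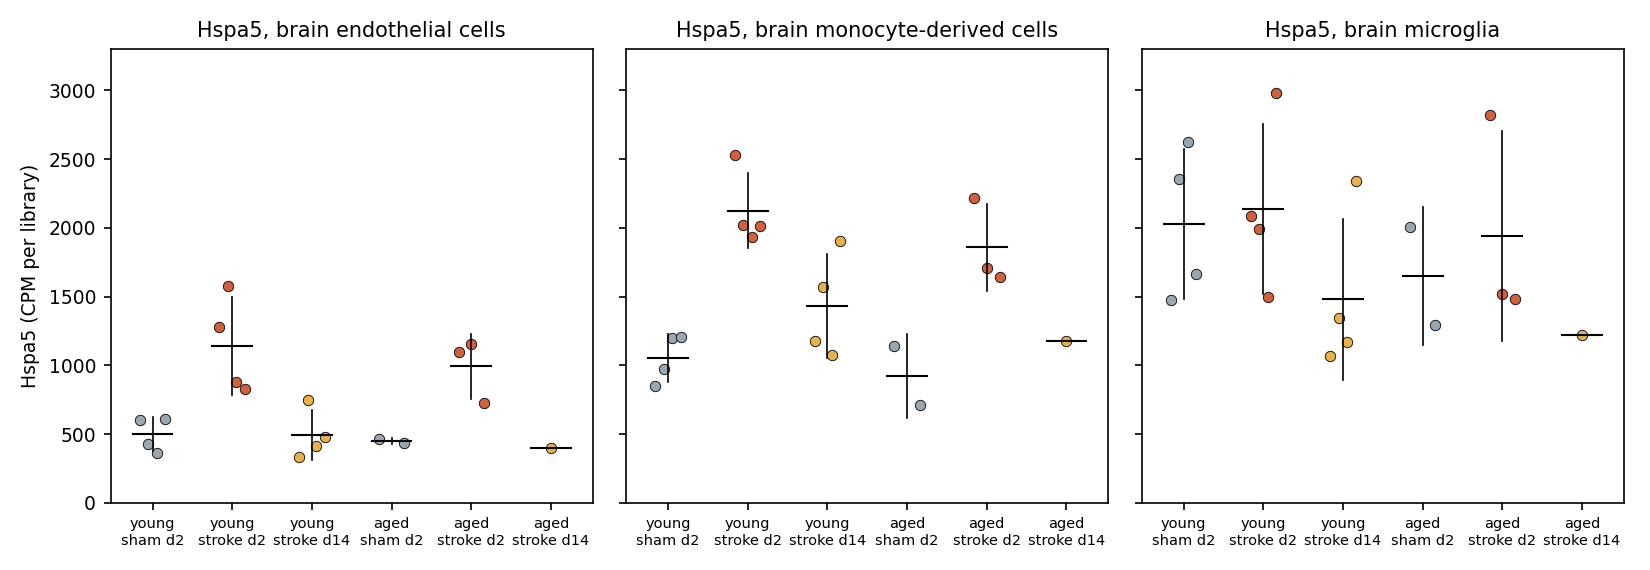
Hspa5 in CPM (vertical axis) in endothelial cells, monocyte-derived cells and microglia of brain; points are libraries, horizontal bars are group means and vertical bars are ± 1 SD. In young endothelial and monocyte-derived cells the 4 day 2 stroke libraries lie above all 4 sham libraries, whereas the microglial groups overlap; aged stroke day 14 is a single library.

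Aged brain gave values of similar size. Hspa5 in aged endothelial cells was 466 and 433 CPM in the 2 sham libraries and 723, 1100.3 and 1157 CPM in the 3 day 2 stroke libraries, so the groups did not overlap. The log2 fold change was 1.17 (SE 0.34, adjusted p = 0.135 by edgeR), and DESeq2 gave 1.16 (adjusted p = 0.0283). Beside it, aged sham and stroke did not overlap in the endothelial list (20283 to 21951 against 12213 to 17229 CPM), in Sparc (957 to 1278 against 3364 to 4036 CPM), in the T cell list (497 to 502 against 195 to 234 CPM) or in the neuron list (194 to 254 against 72.3 to 135 CPM). Nor did they in the epithelial or choroid plexus list (88.2 to 903 against 6.76 to 43.6 CPM) or the B cell list (121.8 to 144.5 against 88.5 to 121.4 CPM). Aged monocyte-derived cells held 1140.2 and 708 CPM in sham and 1645, 1710.2 and 2218 CPM after stroke (log2 fold change 1.67, SE 0.36, adjusted p = 0.0222). Hspa5 was the only 1 of 7 members called there, with 2.56% of genes called and a median over all genes of 0.44. The sham cells were 33 and 52 in number, and the call was lost in 5 of 11 alternatives, among them the removal of either sham library (adjusted p = 0.257 without the male and 0.0701 without the female) and of stroke female 1 (adjusted p = 0.0667). With sex as a term it was kept (1.63, adjusted p = 0.0329). Several other measures separated these aged groups. Mitochondrial counts made up 3.46% to 3.74% in sham and 1.43% to 2.71% after stroke. The monocyte list summed to 38709 to 46762 CPM in sham and 24337 to 33384 CPM after stroke, and the border macrophage list to 769.8 to 1159.9 and 1549.5 to 2620.2 CPM. The endothelial list stood at 227 to 485 CPM in sham and 9.29 to 42.7 CPM after stroke, and the B cell list at 69.3 to 272 and 12.5 to 18.3 CPM. The platelet list stood at 0 to 26.9 and 293 to 1462 CPM, and the dendritic list at 270 to 314 and 409.7 to 763 CPM. The mural list was at 26.9 to 69.9 and 8.44 to 25.3 CPM. The astrocyte and NK cell lists, both at 0 in sham, did not overlap either. The part of these measures in the aged results was not tested. The single aged library at day 14 held 402 CPM in endothelial cells and 1181 CPM in monocyte-derived cells. In aged microglia and endothelial cells edgeR called none of 14 member tests, against 1 at an unadjusted p under 0.05 and 1 by DESeq2, and 2.3% and 0.606% of all genes were called.

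The difference between the ages was tested directly as an interaction of age and stroke at day 2. By edgeR none of 14 member tests in microglia and endothelial cells was called, against 1 at an unadjusted p under 0.05 and none by DESeq2, and 0% of all genes were called in either type. For endothelial Hspa5 the interaction was -0.14 on the log2 scale, with a 95% interval of -0.95 to 0.67. The interaction with the unadjusted p under 0.05 was microglial Hspa1b (3.72, SE 1.21, adjusted p = 0.768), where the summed pair stood at 2.49 (adjusted p = 0.769). All young mice were male, while both aged day 2 groups held both sexes. With sex as a term in the fit, edgeR again called no member for the interaction, and endothelial Hspa5 stood at -0.23 (adjusted p = 0.969). The term rests on the aged libraries alone.

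Hspa1a and Hspa1b, the inducible cytosolic Hsp70s, were highest in brain endothelial cells. The order covers types present in at least 6 young libraries, which leaves out mural cells (3 brain libraries, 81 cells) and epithelial cells (1 library). Mural cells held 291 ± 101 CPM of Hspa1a (n = 3), 533 ± 239 CPM of Hsp90aa1 and 835 ± 208 CPM of Hspa8. Among the types in the order, Hspa1a averaged 730.2 ± 508 CPM in endothelial cells (SD, n = 12), with a lowest, median and highest value of 225, 571 and 1915 CPM. Dendritic cells followed with 222 ± 111 CPM (n = 12), border-associated macrophages with 179 ± 108 CPM (n = 12) and monocyte-derived cells with 98.0 ± 50.4 CPM (n = 12). Microglia held 45.0 ± 33.3 CPM (n = 12). The summed pair kept this order, from 952 ± 689 CPM in endothelial cells over 303 ± 152 CPM in dendritic cells to 60.7 ± 49.4 CPM in microglia.

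Lymphocytes and granulocytes stood at the bottom of this order. B cells averaged 44.2 CPM with 5 of 9 libraries at 0, T cells 32.4 CPM with 4 of 11 at 0, NK cells 16.4 CPM with 2 of 6 at 0, and granulocytes 6.1 CPM with 10 of 12 at 0. Neighbours were taken in the order of the mean log2(CPM + 10) over libraries, which can differ from the order of the mean CPM printed here, and were compared within libraries on that scale by an exact two-sided permutation test that flips the sign of each library's difference, adjusted over the neighbouring pairs of all members in a tissue, 56 in brain and 42 in blood. Endothelial cells exceeded dendritic cells by 1.58 ± 0.80 (SD, n = 12 libraries, adjusted p = 0.0137), border-associated macrophages exceeded monocyte-derived cells by 0.76 ± 0.55 (n = 12, adjusted p = 0.0137), and monocyte-derived cells exceeded microglia by 1.04 ± 0.62 (n = 12, adjusted p = 0.0137), each by that exact test. Dendritic cells and border-associated macrophages did not differ beyond their spread, nor did neighbours from microglia down.

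Hspa1b ran in a similar order at lower counts. Endothelial cells held 222 ± 216 CPM (n = 12), and they exceeded dendritic cells at 80.3 ± 62.0 CPM (n = 12) by 1.29 ± 0.88 on the same log2 scale (adjusted p = 0.0137, exact permutation test). No other neighbours of Hspa1b had an adjusted p under 0.05 by this test.

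Free RNA is a measure to set beside low levels. Endothelial markers, pooled over young brain, stood at 22719.9 CPM in endothelial cells, 51.1 CPM in monocyte-derived cells and 26.0 CPM in microglia, which is 445 and 872 times less. Hspa1a stood at 693, 71.4 and 51.8 CPM, 9.71 and 13.4 times less. Granulocytes were at 62.5 CPM of endothelial markers and 5.59 CPM of Hspa1a, 363 and 124 times less. The part of free RNA in these levels was not tested.

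**Figure D2:**
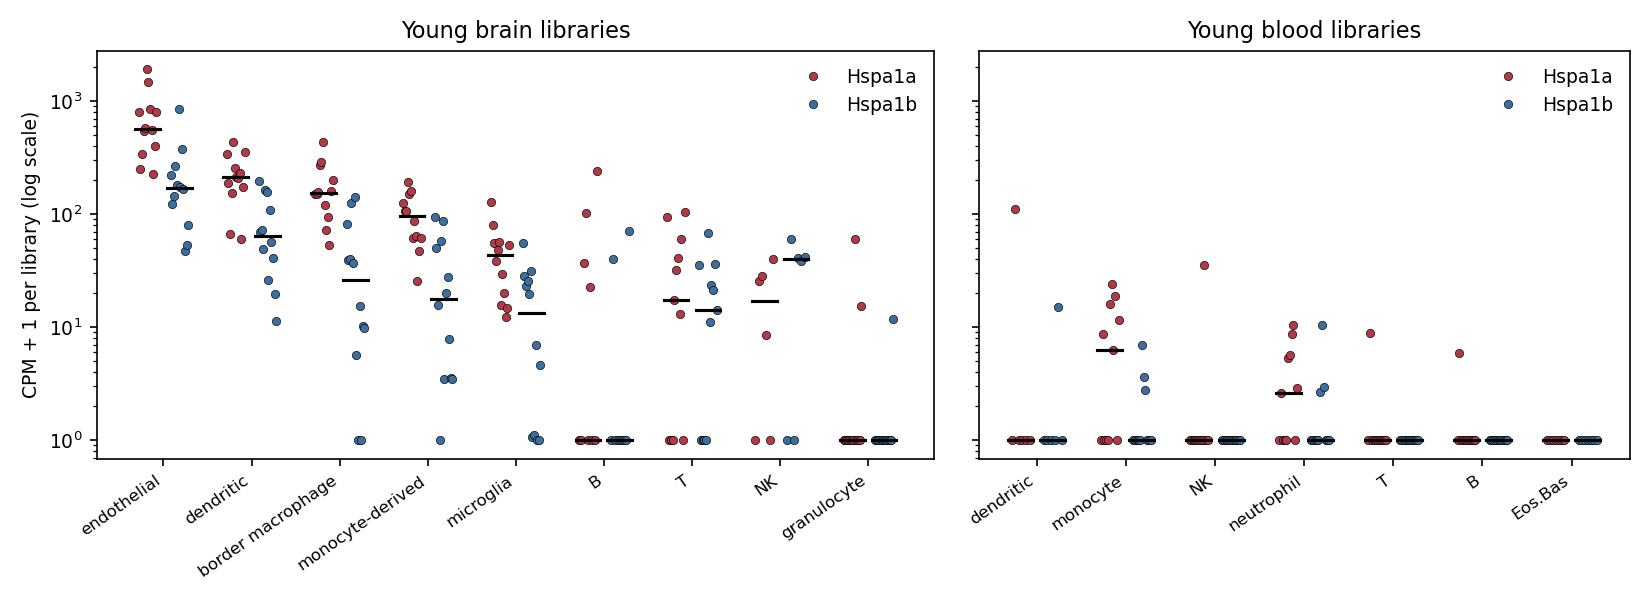
Hspa1a (red) and Hspa1b (blue) by cell type in young brain and young blood; the vertical axis is CPM + 1 on a log scale, points are libraries with at least 20 cells of the type and bars are medians. Brain endothelial cells hold the highest values, and most blood libraries lie at 0 (drawn at 1).

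Across the conditions, endothelial Hspa1a held 801, 251, 342 and 543 CPM in sham, 559.7, 225, 399 and 809 CPM at day 2 and 582, 1915, 1488 and 847 CPM at day 14. Sham and day 2 covered the same range, and 3 of the 4 day 14 libraries lay above both. Endothelial Hspa1b held 220, 122, 143 and 267 CPM in sham and 167, 45.9, 51.9 and 79.4 CPM at day 2. At day 14 it held 179, 844, 171 and 374 CPM, with each library above every day 2 library. From day 2 to day 14 Hspa1b rose 4.20-fold (log2 fold change 2.07, SE 0.49, adjusted p = 0.0156), and Hspa1a differed by 1.19 (SE 0.43, adjusted p = 0.0825). The summed pair differed by 1.34 (SE 0.42, adjusted p = 0.0507), so the call on Hspa1b did not hold for the pair. DESeq2 called both genes (Hspa1a 1.19, adjusted p = 0.0393). At day 2 against sham, endothelial Hspa1a differed by 0.16 (adjusted p = 0.833), Hspa1b by -0.99 (adjusted p = 0.205) and the summed pair by -0.05 (adjusted p = 0.953).

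The Hspa1b call was also lost without day 14 replicate 2 (adjusted p = 0.0693). Early response genes, among them immediate transcription factors such as Fos and Jun that also rise in tissue handling, moved the same way. From day 2 to day 14 in endothelial cells 10 of 23 were called higher and none lower (Fosb 2.69 and Jun 2.07 on the log2 scale), with a list median of 1.07 against 0.02 for all genes. Their summed level was 6279 to 9756 CPM at day 2 and 11878 to 20768 CPM at day 14. In day 14 replicates 1 to 4 this sum was 12651, 20300, 20768 and 11878 CPM, and Hspa1b, given above, did not rank these libraries alike. The endothelial marker sum (15147 to 21373 CPM at day 2, 22744 to 27895 CPM at day 14), the T cell list and Sparc, with the values given beside Hspa5, also separated day 2 from day 14 without overlap. The part of these measures, and of the subtype shares, in the result was not tested.

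At day 14 against sham, endothelial Dnajb1, the J-domain partner that hands substrates to Hsp70, did not overlap between the groups. It was 59.6, 51.8, 47.3 and 44.2 CPM in sham and 83.3, 171, 105 and 112 CPM at day 14 (log2 fold change 1.15, SE 0.30, adjusted p = 0.346). Hspa1a at 1.35 (SE 0.43), Hspa1b at 1.08 (SE 0.50) and Hsph1 at 1.36 (SE 0.62) pointed the same way, and their libraries overlapped between the groups. The summed pair stood at 1.29 (SE 0.42, adjusted p = 0.604), Hsp90aa1 at 0.62 and Hspa8 at 0.48. By edgeR none of the 7 members was called, against 4 at an unadjusted p under 0.05 and none by DESeq2. Of all 5833 genes 0% were called in this comparison, so no difference passed the adjustment over all genes.

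In microglia the levels of the pair at day 2 lay mostly below sham without passing the test. Hspa1b was 54.7, 27.6, 22.3 and 24.7 CPM in sham and 5.88, 0, 0 and 3.59 CPM at day 2, without overlap (log2 fold change -2.97, SE 1.13, adjusted p = 0.0594). At day 14 it was 18.8, 30.3, 0.0686 and 0.103 CPM. Hspa1a was 127, 79.3, 54.1 and 37.5 CPM in sham and 18.8, 11.2, 13.7 and 52.6 CPM at day 2, with 1 day 2 library inside the sham range (-1.16, SE 0.55, adjusted p = 0.122). Dnajb1 was 162, 229, 187 and 111 CPM in sham and 50.5, 39.6, 32.4 and 136 CPM at day 2, again with replicate 4 inside the sham range (-0.99, SE 0.42, adjusted p = 0.0857). The summed pair differed by -1.53 (SE 0.60, adjusted p = 0.0658). Without replicate 3, Hspa1b stood at -2.96 (adjusted p = 0.0921), Hspa1a at -1.10 (adjusted p = 0.166) and Dnajb1 at -0.93 (adjusted p = 0.140).

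In the 3 young microglial comparisons none of 21 member tests was called by edgeR. At an unadjusted p under 0.05 there were 3, and DESeq2 called 2, Dnajb1 (-1.28, adjusted p = 0.0141) and Hspa1a (-1.52, adjusted p = 0.0432) at day 2. The background was high: 31.4% of 10145 genes were called at day 2 against sham, 15.2% at day 14 against sham and 6.93% at day 14 against day 2. Hspa1b at day 2 was called when only the compared groups entered the fit (-2.89, adjusted p = 0.000946) and with counts rounded up per cell (-2.83, adjusted p = 0.0223). Hsp90aa1 at day 14 against day 2 was at -0.77 (adjusted p = 0.175), and without day 2 replicate 3 at -0.97 (adjusted p = 0.0471). Without day 2 replicate 4, edgeR called Dnajb1 (-1.85, adjusted p = 0.00690) and Hspa1a (-2.21, adjusted p = 0.0235). Early response genes moved in the same direction: 10 of 23 were called lower and none higher at day 2, with a median of -1.43 against -0.05 over all genes. Their summed level was 6542 to 25801 CPM in sham and 2575 to 8572 CPM at day 2. Marker sums lay apart from sham in all 4 day 2 libraries, not in replicate 3 alone. Microglial markers summed to 14204 to 15548 CPM in the other 3, also below sham. Without overlap over all 4, the astrocyte list was at 25.8 to 72.4 CPM against 206 to 225 CPM in sham, the dendritic list at 493 to 1290.0 CPM against 2734 to 3402 CPM, and the monocyte or macrophage list at 545 to 4330 CPM against 235 to 399.7 CPM. The oligodendrocyte and neutrophil lists were lower at day 2 without overlap too. The part of these measures was not tested.

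In monocyte-derived cells Hspa1a separated the groups in level but was not called. It was 125, 105, 106 and 189.8 CPM in sham, and 63.5, 24.8, 45.7 and 60.8 CPM at day 2, so the groups did not overlap. The log2 fold change was -0.80 (SE 0.43, adjusted p = 0.321), in a comparison whose median gene stood at 0.29, and that of the summed pair was -1.09 (adjusted p = 0.200). At day 14 the level was 149, 159.9, 60.8 and 85.2 CPM, and the summed pair differed from day 2 by 1.36 (SE 0.40, adjusted p = 0.119).

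**Figure D3:**
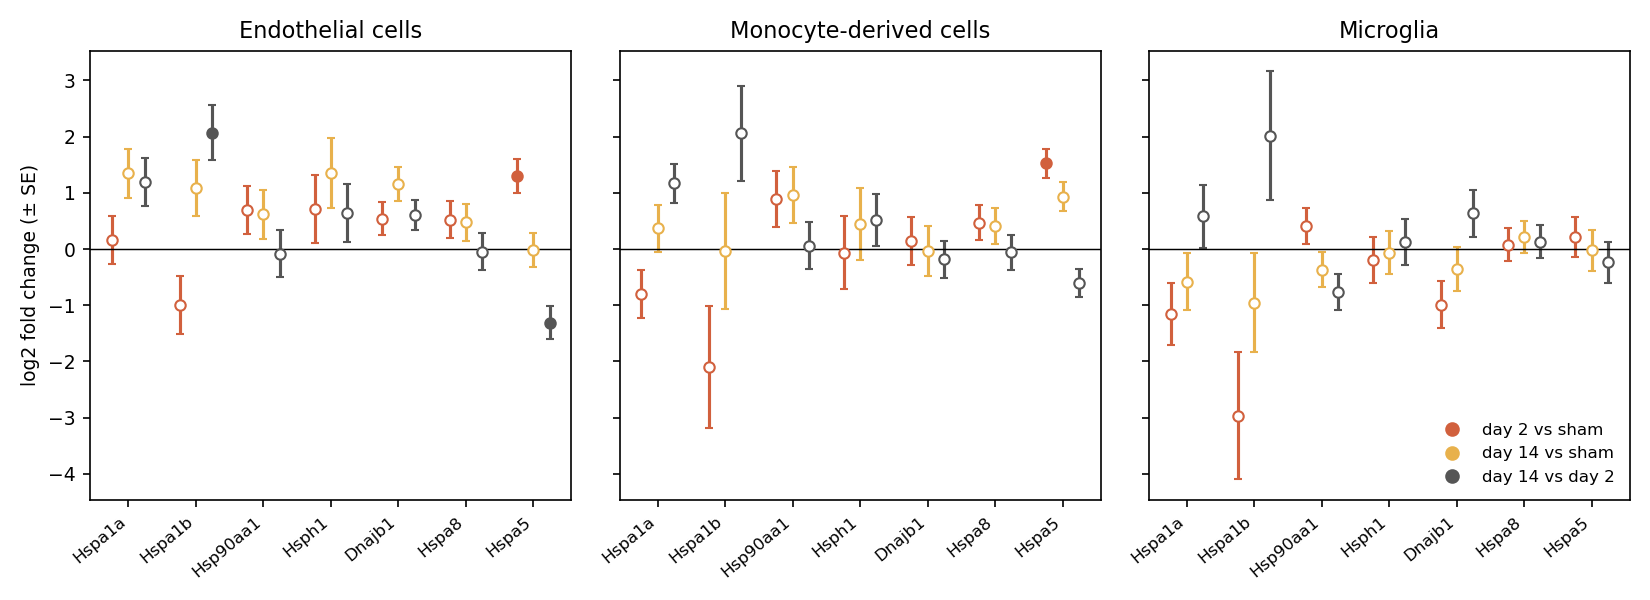
Log2 fold changes of the 7 members in endothelial cells, monocyte-derived cells and microglia of young brain, with bars of ± 1 SE; filled points are called at an adjusted p under 0.05. The filled points are Hspa5 in endothelial and monocyte-derived cells at day 2 and in endothelial cells from day 2 to day 14, and Hspa1b in endothelial cells from day 2 to day 14.

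The split between the pair varied by library. Over all cells of a library, Hspa1b made up 20.0% to 34.3% of the summed pair counts in 9 young brain libraries. It made up 9.10% in stroke day 2 replicate 3 (95% exact binomial interval 6.59% to 12.1%, of 453 counts), 7.47% in day 2 replicate 4 (5.92% to 9.18%, of 1050) and 9.27% in day 14 replicate 3 (7.19% to 11.7%, of 680). No sham library was among these 3. Intervals cover counting error only. When the libraries were put in the order of the identifier code in their metadata, the 3 held ranks 6, 7 and 8 of 12. Ranks 1 to 5 were the libraries under 2% mitochondrial counts in endothelial cells, and ranks 6 to 12 those above 2%. Sham replicates 2 to 4 held ranks 10 to 12. What that code stands for is not given in the sources used here.

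Hsp90aa1, the inducible cytosolic Hsp90, was lowest over all cells in the same libraries, though day 2 replicate 4 lay close to the next one. Over all cells it stood at 169 CPM, 299 CPM and 165 CPM in them. In the other young brain libraries it ran from 303 to 519 CPM, with 303 CPM in day 14 replicate 1, whose share of Hspa1b was 25.9%. Within 5 cell types the mean log2 deviation from the type's level was -0.70, -0.33 and -0.98 in the 3 libraries of low share. Over the types it ran from -0.93 to -0.54, from -0.79 to 0.11 and from -1.26 to -0.70 in them. All 3 were among the libraries above 2% mitochondrial counts in endothelial cells. In monocyte-derived cells Hsp90aa1 under and above 2% was 290 (1 library) and 123 to 203 CPM in sham. It was 394.5 to 436 and 149 to 156 CPM at day 2, and 323 to 486 and 106 to 271 CPM at day 14. In endothelial cells and microglia these ranges were apart at day 2 alone. Above 2% at day 2 stood replicates 3 and 4 alone. The part of the mitochondrial share was not tested. Among aged libraries, stroke day 2 female 2 also had a low share of Hspa1b, 8.28% of 130 counts (interval 4.30% to 14.6%), with Hsp90aa1 at 323 CPM. Of the other aged libraries, 3 held less Hsp90aa1 with a higher share: sham male 1 with 240.2 CPM (share 12.2%), stroke day 2 male 1 with 293 CPM (24.9%) and stroke day 14 female 1 with 296 CPM (24.8%).

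**Figure D4:**
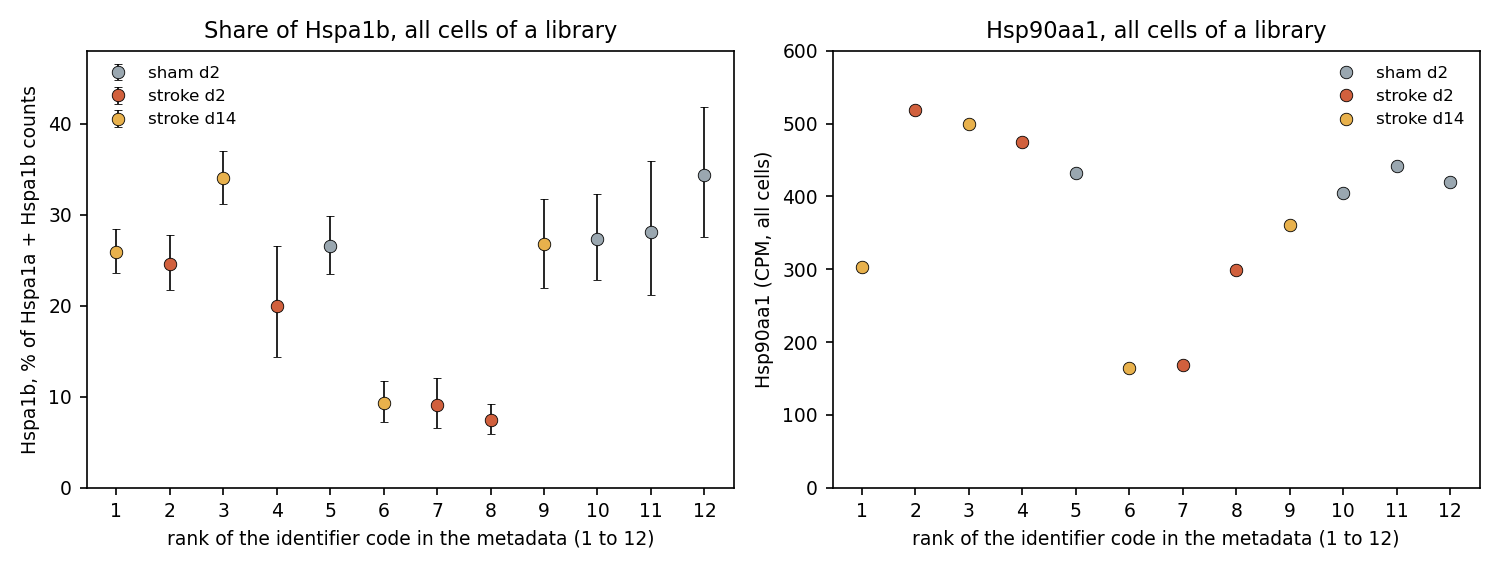
Left, the percent of Hspa1a plus Hspa1b counts that are Hspa1b in each young brain library, with 95% exact binomial intervals; right, Hsp90aa1 in CPM over all cells of the library; both are ordered by the rank of the identifier code. Ranks 6 to 8 hold the 3 libraries with shares of 7.47% to 9.27%, and the 3 lowest values of Hsp90aa1, 165 to 299 CPM.

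Because 2 of the 3 libraries are day 2 and 1 is day 14, comparisons of the pair were repeated without them, an alternative chosen after seeing the data. Endothelial Hspa1b from day 2 to day 14 kept its size (1.99) and lost its call (adjusted p = 0.0977). In microglia at day 2 edgeR then called Hspa1a (-2.16, adjusted p = 0.0266), Dnajb1 (-1.83, adjusted p = 0.0201) and Hsp90aa1 (0.75, adjusted p = 0.0405), 3 of 7 members in place of none, where 17.6% of 11475 genes were called in that fit, with 2 libraries left at day 2.

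Hsp90aa1, described here by condition, was called by edgeR in none of 23 comparisons of stroke with sham when all libraries entered. At an unadjusted p under 0.05 there were 3, and DESeq2 called none. Over the 30 comparisons within a tissue edgeR called 4.76% of all gene tests, from 0% to 31.4% by comparison. In microglia Hsp90aa1 was 462, 448, 499.7 and 446 CPM in sham, 850.2, 602, 263 and 417 CPM at day 2 and 246, 321, 155 and 331 CPM at day 14. Every day 14 library lay below every sham library, and the scaled log2 fold change was -0.37 (SE 0.32, adjusted p = 0.446). In endothelial cells it averaged 233 ± 51.1 CPM in sham, 354 ± 155 CPM at day 2 and 358 ± 246 CPM at day 14 (SD, n = 4 each), with overlap throughout. Across the brain types in at least 6 libraries its means ran from 457 CPM in B cells to 194 CPM in granulocytes. No neighbours in the order of mean log2 level had an adjusted p under 0.05 by the exact permutation test.

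Hsph1, the Hsp110 that exchanges the nucleotide of Hsp70, was low everywhere and at 0 in all 12 brain granulocyte libraries. Its brain means were 132 CPM in B cells, 100.3 CPM in T cells and 99.3 CPM in NK cells, and 35.6 to 52.1 CPM in endothelial, dendritic and macrophage types. In the order of mean log2 level border-associated macrophages came just above granulocytes, although 4 types had a lower mean CPM than they, and exceeded them by 2.09 ± 1.31 on the log2(CPM + 10) scale (n = 12, adjusted p = 0.0219, exact permutation test). Blood neutrophils repeated the floor with 0.7 CPM and 7 of 11 libraries at 0, below blood monocytes at 35.3 CPM by 1.89 ± 0.75 (n = 11, adjusted p = 0.0137, exact permutation test).

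Hspa8, the constitutive Hsp70, was called by edgeR in none of 36 comparisons, against 3 at an unadjusted p under 0.05. DESeq2 called it in 1 (NK cells of brain against blood, 0.52, adjusted p = 0.0491). Over the 36 comparisons edgeR called 6.26% of all 211562 gene tests. Granulocytes held the lowest level of Hspa8. Over the same types its brain means ran from 1773 CPM in dendritic cells down to 967 CPM in B cells, then to 297 ± 133 CPM in granulocytes (SD, n = 12). B cells exceeded granulocytes by 1.61 ± 0.34 (n = 9, adjusted p = 0.0365), by the exact permutation test. In blood the neutrophils were lowest, with 258 ± 145 CPM (n = 11). There, too, B cells were above them, by 1.64 ± 0.37 (n = 11, adjusted p = 0.0137, exact permutation test).

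Dendritic cells, border-associated macrophages and T cells of young brain gave 30 member tests of stroke against sham. By edgeR none was called, against 1 at an unadjusted p under 0.05 (dendritic Hspa1b at day 2, -1.66) and none by DESeq2. At day 2 and day 14 the shares of all genes called were 1.01% and 1.53% in dendritic cells, 2.67% and 0.0762% in border-associated macrophages and 0% and 0.0954% in T cells. Border macrophage Dnajb1 did not overlap between sham (230 to 346 CPM) and day 2 (107 to 208 CPM), at a log2 fold change of -0.60 (SE 0.37, adjusted p = 0.343). Hspa1b there was 38.5 to 124 CPM in sham and 0 to 14.4 CPM at day 2, also without overlap, but did not pass the filter on low counts and was not tested.

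In blood, 47 member tests in neutrophils, monocytes, B cells and T cells gave no call by edgeR, 7 unadjusted p under 0.05 and no call by DESeq2. The shares of all genes called at day 2 against sham, day 14 against sham and day 14 against day 2 were 0%, 5.99% and 4.69% in neutrophils and 0%, 0.254% and 0.537% in monocytes. At day 2 and day 14 against sham they were 0% and 0.0114% in B cells and 0% in T cells. The pair did not pass the filter on low counts in any of these blood fits, and Hsph1 did not in neutrophils. Over the 10 comparisons log2 fold changes ran from 0.03 to 0.54 for Dnajb1, -0.06 to 0.55 for Hspa5, -0.19 to 0.91 for Hspa8 and -0.48 to 1.18 for Hsp90aa1, and over 7 comparisons from 0.15 to 1.14 for Hsph1.

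Blood Hsp90aa1 was uneven at day 14. In monocytes it was 157, 129, 142 and 149 CPM in sham, 132, 76.1, 68.1 and 113 CPM at day 2 and 109, 228 and 381 CPM at day 14 (day 14 against day 2 1.18, SE 0.34, adjusted p = 0.182). Replicate 1 of day 14 lay within the range of the other groups, and without it the value was 1.51 (adjusted p = 0.0458). Neutrophil Hspa8 had the same shape, with 164, 197, 136 and 193 CPM in sham and 191, 432 and 613 CPM at day 14 (0.91, SE 0.32, adjusted p = 0.105). It was called without day 14 replicate 1 (1.25, adjusted p = 0.0304), without TMM (1.26, adjusted p = 0.0295) and without the filter on low counts (0.82, adjusted p = 0.0297).

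Between tissues, leukocytes from brain held more Hspa5 than the matching type in blood, in all 6 types compared. Young libraries of all conditions were used, 6 to 12 from brain and 6 to 11 from blood. Brain cells had been dissociated with papain and sorted, and blood cells had not, so tissue and preparation cannot be told apart.

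Brain T cells ran from 646 to 1199 CPM of Hspa5 (median 831, n = 11) and blood T cells from 190 to 359 CPM (median 263, n = 11), with no overlap. The difference was 2.88-fold (log2 fold change 1.53, SE 0.12, adjusted p = 2.83e-10). Hsp90aa1 at 0.85 (SE 0.18, adjusted p = 0.00133) and Dnajb1 at 0.69 (SE 0.23, adjusted p = 0.0324) were also higher, 3 of 5 members called against 23% of 2882 genes. The Dnajb1 call was lost in 12 of 27 alternatives, of which 10 left out 1 library (adjusted p 0.0507 to 0.0918), and that on Hsp90aa1 in 2. Hsph1 (0.21) and Hspa8 (0.14) were not called. Early response genes were called higher in 10 and lower in 1 of 12 (median 1.44, Junb 2.86).

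Monocyte-derived cells held 847 to 2528 CPM of Hspa5 (median 1386, n = 12) against 371 to 963 CPM in blood monocytes (median 625, n = 11), with overlap at the edge (log2 fold change 1.40, SE 0.18, adjusted p = 5.71e-07). Hspa1a was 24.8 to 189.8 CPM against 0 to 23.3 CPM with 5 of 11 blood libraries at 0, and the groups did not overlap (3.82, SE 0.44, adjusted p = 1.62e-07). Hsp90aa1 (0.99, SE 0.27, adjusted p = 0.00554) and Dnajb1 (0.55, SE 0.19, adjusted p = 0.0264, lost in 7 of 28 alternatives, 4 of them a library left out, adjusted p 0.0503 to 0.0617) made 4 of 6 members called, where 36.8% of 5708 genes were. Early response genes were higher in 19 and lower in 1 of 22 in this comparison, with a median of 1.94 against 0.00 over all genes (Ier3 5.67). Hsph1 (0.24) and Hspa8 (0.13) were not called, and the summed pair stood at 4.06 (adjusted p = 1.55e-07).

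In granulocytes against blood neutrophils Hspa5 was 267 to 1824 CPM against 130 to 437 CPM (1.44, SE 0.22, adjusted p = 1.38e-05), 1 of 2 members called against 27.7% of genes. NK cells gave 790 to 1628 CPM against 332 to 859 CPM (1.14, SE 0.21, adjusted p = 0.000682), 1 of 3 members called against 14.7%. Dendritic cells gave 826 to 1643 CPM against 514 to 1363 CPM (0.73, SE 0.20, adjusted p = 0.0162), and the other of their 2 calls among 5 members was Hspa1a (5.61, SE 0.83, adjusted p = 7.97e-05), against 15.8%. Blood dendritic Hspa1a was 0 in 5 of 6 libraries, and its highest value, 110 CPM, lay inside the brain range. With stroke day 2 libraries only, Hspa5 was at 0.76 in granulocytes (4 against 4 libraries, adjusted p = 0.16) and at 0.75 in NK cells (2 against 4, adjusted p = 0.323). In dendritic cells it was at 1.00 (adjusted p = 0.432), with 4 brain libraries against a single blood library that is assumed to vary like the others, and Hspa1a was not called either. The dendritic Hspa5 call was lost without library-size scaling by TMM (0.52, adjusted p = 0.0816) and without blood stroke day 2 replicate 4 (0.69, adjusted p = 0.0700).

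In B cells Hspa5 was 684 to 1581 CPM in brain and 321 to 562 CPM in blood, without overlap (0.69, SE 0.18, adjusted p = 0.0161), in a comparison whose median gene stood at -0.38. Dnajb1 was higher by 1.10 (SE 0.35, adjusted p = 0.0499), so 2 of 5 members were called, against 6.78% of genes. With stroke day 2 libraries only (2 of brain against 4 of blood), B cell Hspa5 was at -0.03 (adjusted p = 0.991), and the call was also lost without sham replicate 1, 2 or 3 or day 14 replicate 4 of brain (adjusted p 0.0508 to 0.125). The Dnajb1 call was lost in 11 of 25 alternatives, 8 of them a library left out (adjusted p 0.0589 to 0.153).

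**Figure D5:**
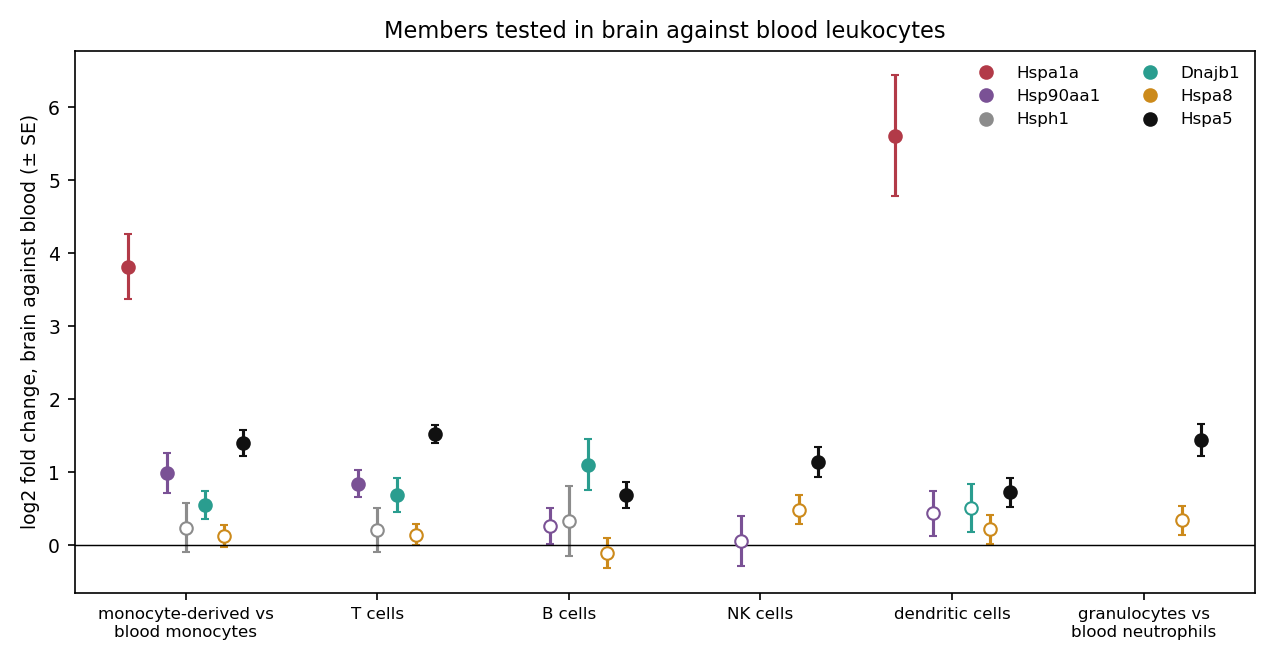
Log2 fold changes, brain against blood, of the members tested in each of 6 leukocyte types (horizontal axis), with bars of ± 1 SE; filled points are called at an adjusted p under 0.05. Hspa5 is filled in all 6 types, from 0.69 in B cells to 1.53 in T cells, and Hspa1a is filled in monocyte-derived and dendritic cells.

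In these 4 types the members that edgeR did not call were Hspa8 in each (-0.11 to 0.49), Hsp90aa1 in B cells (0.27), NK cells (0.06) and dendritic cells (0.44), Dnajb1 in dendritic cells (0.51) and Hsph1 in B cells (0.33). DESeq2 called Hspa8 in NK cells, as given above. The summed pair in dendritic cells stood at 5.57 (adjusted p = 2.28e-05). Early response genes were called higher in 4 and lower in 2 of 14 in B cells, in 6 and 1 of 7 in NK cells (Jun 3.89), in 18 and 1 of 21 in dendritic cells (Nr4a1 5.21), and in 9 and 2 of 18 in granulocytes (Nfkbia 3.53). Their part in the differences between brain and blood was not tested.

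The pair was nearly absent from blood lymphocytes. Pooled over libraries, T cells held 31 Hspa1a counts of 886264 in brain and 2 of 4314395 in blood, a ratio of 75.5 with a 95% counting interval of 19.2 to 651. Blood Hspa1a was 0 in 10 of 11 libraries of T cells, and likewise of B cells and of NK cells. The intervals leave out the spread between libraries. Hspa1b held 24 counts in brain T cells and 0 in blood T cells, which puts brain at 38.9 times a floor of 3 counts over the blood group. In NK cells Hspa1b held 10 counts against 0, at 8.27 times the same floor, with 2 of 6 brain libraries at 0. These floor ratios leave out the counting error of the brain counts. B cells held 6 Hspa1a counts of 177813 in brain and 4 of 9449079 in blood, a ratio of 79.7 (18.9 to 384). The ratio of the summed pair was 134 (35.3 to 1133) in T cells, 106 (28.5 to 482) in B cells and 42.2 (6.61 to 1763) in NK cells.

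Other types were less extreme. Hspa1a in dendritic cells held 878 counts against 2, a ratio of 51.1 (14.1 to 422). Blood dendritic cells were at 0 in 5 of 6 libraries and at 110 CPM in the other, inside the brain range of 58.7 to 432 CPM. In monocyte-derived cells against blood monocytes Hspa1a held 967 against 36 counts, a ratio of 10.6 (7.61 to 15.2). Granulocytes and blood neutrophils did not differ beyond counting error, 4 against 36 counts, a ratio of 1.97 (0.510 to 5.50). Endothelial markers in brain T cells stood at 142 CPM and in blood T cells at 260 CPM. The oligodendrocyte, dendritic, B cell and platelet lists were also lower in brain T cells. The remaining lists of other cell types were higher there. Among them were the monocyte or macrophage list (2357 against 950 CPM), the microglia list (108 against 63.9 CPM) and the astrocyte list (13.6 against 1.25 CPM). The part of free RNA in the pair's difference was not tested.

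Other genes of the same pathways were followed in lists of 25, chosen with earlier results of these data known. In the list of endoplasmic reticulum chaperones and unfolded protein response genes, 11 of 21 tested were called higher and none lower in endothelial cells at day 2 against sham, with a median of 0.80 against 0.00 over all genes, of which 13.3% were called. Pdia6, a disulfide isomerase, rose by 1.46 (SE 0.21) and Sec61b, a subunit of the translocon, by 1.38 (SE 0.25). From day 2 to day 14, 9 of 21 were called lower and none higher, with a median of -0.71, where 11.2% of all genes were called. Manf, a secreted factor of the reticulum, fell by 1.76 (SE 0.24), and Xbp1, a transcription factor of the response, fell by 1.49 (SE 0.23).

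In monocyte-derived cells 10 of 24 of these genes were called higher and none lower at day 2, with a median of 1.09 against 0.29 over all genes, of which 6.71% were called. Creld2 rose by 2.71 (SE 0.42) and Manf by 2.07 (SE 0.31). In microglia, where Hspa5 itself was not called, 9 of 24 were called higher and 4 lower at day 2, with a median of 0.43 against -0.05 and 31.4% of all genes called. Sdf2l1, a partner of Hspa5 in the reticulum, rose by 1.68 (SE 0.28) and Ddit3, the transcription factor CHOP, fell by 1.84 (SE 0.34). In monocyte-derived cells against blood monocytes 16 of 23 were called higher and 3 lower (median 0.61 against 0.00, with 36.8% of all genes called), with Ppp1r15a at 3.07 (SE 0.29).

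Among other cytosolic and mitochondrial chaperones, 7 of 18 were called higher and none lower in endothelial cells at day 2 (median 0.64 against 0.00 over all genes, 13.3% of which were called), and 10 of 18 higher and none lower in microglia (median 0.78 against -0.05). Hspe1, the mitochondrial partner of Hsp60, rose by 2.02 (SE 0.28) in endothelial cells. Tcp1, a subunit of the cytosolic chaperonin, rose by 1.31 (SE 0.27) there and by 1.57 (SE 0.22) in microglia. Of the co-chaperones and heat shock factor genes none of 21 was called by edgeR in endothelial cells at day 2 (median 0.20). In microglia 6 of 25 were called higher and 3 lower (median 0.21), a share near the 31.4% of all genes called there, among them Dnajb4, which fell by 1.97 (SE 0.47), and Dnajb2, which fell by 1.76 (SE 0.45). In monocyte-derived cells 2 of 23 were called, both higher, where 6.71% of all genes were: Hsbp1 (1.48, SE 0.29) and Bag1 (1.20, SE 0.26).

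Within cell types the authors' subtypes differed in the members, which is given as a description because the subtypes were made from the same cells. Hspa1a averaged 1762 ± 987 CPM in endothelial subtype EC3 (SD, n = 10 libraries), 531 ± 341 CPM in EC1 (n = 12) and 240.2 ± 158 CPM in EC2 (n = 6). Hspa5 ran the other way among these, with 477 ± 199.8 CPM in EC3, 556 ± 233 CPM in EC1 and 1101 ± 492 CPM in EC2. These means pool conditions unequally: 4 of the 6 EC2 libraries were of stroke day 2. At day 2 Hspa5 was 1055 to 1805 CPM in EC2, 552 to 1111 CPM in EC1 and 213 to 857 CPM in EC3. It was 917 to 1274 CPM in EC4 and 786 to 2278 CPM in EC6 at that time. The single EC2 libraries of sham and day 14 held 951 and 327 CPM.

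The make-up of the endothelial cells differed between the groups. EC2 was 0.339% to 5.49% of the endothelial cells of a library in sham, 32.7% to 59.2% at day 2 and 0.315% to 4.75% at day 14. EC3 was 3.73% to 13.7% in sham, 3.49% to 14.8% at day 2 and 22.1% to 36.3% at day 14. Neither range at its high time overlapped those of the other groups. Endothelial levels by group, given above, are therefore levels over different mixtures of subtypes. Within EC1, present in all 12 libraries, Hspa5 ran from 302 to 567 CPM in sham, 552 to 1111 CPM at day 2 and 303 to 652 CPM at day 14, with overlap at the edges. Within EC4 it ran from 655 to 759.8 CPM in 4 sham libraries and 917 to 1274 CPM in 4 at day 2, without overlap. Hspa1b at day 2 and day 14 overlapped within EC1 (44.3 to 138 and 34.5 to 791 CPM) and within EC3 (137 to 717 CPM in 3 libraries and 272 to 1245 CPM in 4). The part of the subtype shares in the endothelial calls on Hspa5 and Hspa1b was not tested.

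In microglia, subtype Mg2 held the most of Dnajb1 (336 ± 97.3 CPM, n = 7), Hsp90aa1 (732 ± 254 CPM) and Hspa1a (151 ± 89.8 CPM). The conditions of these 7 libraries are not given here. Nor are the shares of microglial and monocyte-derived subtypes by group, so levels by group in these types may also cover different mixtures.

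The genes most like each member were sought by Pearson's r of log2(CPM + 10) over 102 points, each 1 cell type in 1 young brain library, among 3276 genes. Points share libraries and types, so r is a description. Hspa5 was most like Calr, a chaperone of the reticulum (r = 0.72), Hspa8 most like Cct4, a chaperonin subunit (0.74), Hsph1 most like Chordc1, a co-chaperone of Hsp90 (0.64), and Hsp90aa1 most like its paralog Hsp90ab1 (0.66). Hspa1a was most like Pltp (0.76) and Hspa1b most like Klf4 (0.63), while Dnajb1 was most like Copb1 (0.55).

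With each type's mean taken away, Calr (0.62) and Canx (0.54) led for Hspa5, and the leader for Hspa8 was the co-chaperone Dnaja1 (0.48). For Hsp90aa1 the leader was then Hnrnpa2b1 (0.62), and Hsp90ab1 was not among the 3 genes of highest r. For Hsph1 it was Baz1a (0.52), with Chordc1 next (0.50). Coq10b (0.49) led for Hspa1a, Sec62 (0.50) for Hspa1b and Copb1 (0.58) for Dnajb1. Hspa1a and Hspa1b correlated with each other at 0.73, and at 0.49 without the type means. Hspa1a and Hspa5 correlated at 0.03, and at -0.04 without the type means.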

How the data were processed

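Drop-seq, which tags the transcripts of single cells with barcoded beads and counts them near the 3′ end, was used on all 29 libraries, per the labels. The authors' deposited tables hold each expected count (a fractional value whose origin is not given in the sources used here) per gene and cell. Per the file headers, the metadata give the count of genes, the percent of mitochondrial counts and 2 levels of cell type codes for each cell, as deposited by the authors. Per the submitters' processing notes, the build was mm10 and Seurat was used. The aligner and the cell filters are not given in the sources used here. The members and all lists were chosen with earlier results of these data known.

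Counts were summed per library and the coarser type code, kept from 20 cells, rounded and fitted in edgeR 4.0.16 (TMM scaling, filterByExpr, quasi-likelihood test, two-sided) with all young brain, all blood or all day 2 brain groups in a fit. CPM were computed from the unrounded sums. Adjustment was by Benjamini-Hochberg, over every gene in the fit. Intervals are estimates ± 1.96 SE. Doublets were not called. All 7 members were to be named in each comparison that tests them; where few or none were called, uncalled members are given in part as counts or ranges. Genes named from the lists are the 2 called with the largest change, and the like genes are the 3 of highest r with a mean of at least 50 CPM. On simulated counts for microglia at day 2 (9341 genes), 143 of 194 genes changed 4-fold were called, and 7 unchanged genes. Every simulated gene had the same dispersion of 0.15 and no library stood apart, so this share is not the power of the real fits. Alternatives were DESeq2 1.42.0, no TMM, no filter, counts rounded up per cell, only the compared groups, a replicate block, sex as a term in the aged fits, stroke day 2 libraries only, and each library left out. Coordinates and sequences come from GENCODE and RefSeq tables of GRCm38, the mm10 build. The promoter table held 5 of the 7 members. The analysis used Python 3.11.15 with scipy 1.17.1.

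Replicate numbers were checked as pairs. Deviations of same-numbered libraries correlated by 0.05 to 0.17 on average over the fits, and those of other pairs by -0.06 to -0.02. The highest same-numbered pair of a fit stood at 0.34 to 0.80, but not every pair exceeded 0.1. No pairing was used in the main fits, and the replicate block is given as an alternative.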

Additional observations from a re-analysis of the deposited data

Results flagged for a closer look

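In groups of 4 libraries, 10 of 143 groups had a member whose highest or lowest library stood apart by Dixon's test, where chance gives about 1 in 20. In brain they were Hspa1b in microglia of sham replicate 1 (54.7 CPM, nearest 27.6), Hspa1b in dendritic cells of the same library (197 CPM, nearest 71.5) and Hspa1a in border-associated macrophages of sham replicate 4 (273 CPM, nearest 156). After stroke they were Hsph1 in microglia of day 2 replicate 3 (14.3 CPM, nearest 35.5, from 58 cells), Hspa5 in monocyte-derived cells of day 2 replicate 1 (2528 CPM, nearest 2019) and Hspa8 in border-associated macrophages of day 14 replicate 4 (2207 CPM, nearest 1523).

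In blood all 4 were sham libraries. Monocytes gave Hsph1 in replicate 2 (53.4 CPM, nearest 21.2) and Dnajb1 in replicate 1 (51.0 CPM, nearest 35.5). T cells gave Dnajb1 in replicate 3 (38.1 CPM, the lowest, nearest 57.9) and Hspa5 in replicate 2 (299 CPM, nearest 233).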

How the results depend on the processing

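Counts or cells were few in places: in blood lymphocytes most libraries held 0 counts of the pair, and sham monocyte-derived cells were 43 to 99 per library. Counts of members called changed as follows. For microglia at day 2 against sham, none became 2 by DESeq2, 1 without TMM, 1 with counts rounded up, 1 with only the compared groups, 0 to 2 with a library left out and 3 without the libraries of low Hspa1b share (added after seeing the data). From day 2 to day 14 in microglia it became 1 without TMM and 0 to 1 with a library left out. Endothelial counts were 0 to 1 at day 2 and 1 to 2 from day 2 to day 14 with a library left out, and 1 in the latter without the low-share libraries. In monocyte-derived cells DESeq2 called 1 at day 14 against sham and 1 against day 2. Blood neutrophils at day 14 against sham gave 1 without TMM, 1 without the filter and 0 to 1 with a library left out; blood monocytes from day 2 to day 14 gave 1 without the filter and 0 to 1 with a library left out. Aged endothelial cells gave 1 by DESeq2, and aged monocyte-derived cells 0 without TMM, 0 with only the compared groups and 0 to 2 with a library left out. Between tissues, stroke day 2 libraries alone gave 1 for T cells and 0 for B cells, NK cells, dendritic cells and granulocytes. B cells gave 1 with counts rounded up and 0 to 2 with a library left out, NK cells 2 by DESeq2 and 2 without the filter, dendritic cells 1 without TMM and 1 to 2 with a library left out, and granulocytes 2 without the filter. The cause of these changes was not tested.

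With the replicate number as a block, 1 member (Hspa1b, -3.04, adjusted p = 0.0297) was called in microglia at day 2 and 2 (Hspa1a and Hspa1b) in monocyte-derived cells from day 2 to day 14. The block moved no other count by over 1.5 times. Of 3759 values under alternatives, 1 of a called member changed sign: Hspa5 in B cells of brain against blood, at -0.029 with stroke day 2 libraries only. A batch term was not run, since the metadata used here name no batch.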
